A study of Homo sapiens with 5 samples.

Results

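The proteasome genes measured here were the 39 subunit and assembly-factor genes found by symbol in RNA sequencing of MDA-MB-231 cells, an established human breast cancer line that is triple-negative and mesenchymal. Rows were taken when the symbol began with PSMA, PSMB, PSMC, PSMD, PSMF or PSMG followed by digits only, the immunoproteasome genes PSMB8, PSMB9 and PSMB10 were left out, and a level of at least 5 TMM CPM (CPM, library-size-scaled counts, after TMM factors) was required in at least 1 library. Of 26475 rows in the table, 41 matched by symbol and 39 passed the level filter. PSMA8 and PSMB11, the germ-cell and thymic subunits, had 0 counts in every library. The member closest to the filter was PSMG4, whose highest level was 9.95 TMM CPM.

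The series asks how a short spell of low oxygen differs from a long one and what remains once oxygen is back. It holds 5 libraries with 1 for each condition. Reoxygenated cells spent 10 days at 1% O2 and then 10 days at 20% O2, and the other cells spent 10 days at 1% O2, 10 days at 20% O2, 1 day at 1% O2 or 1 day at 20% O2. All are the same unmodified line, and the labels name no further agent or allele. No condition has a second library, so differences between libraries are given without a test. The intervals beside them are exact 95% intervals of the count ratio, which cover counting error only.

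Library totals ran from 7719797 to 12544953 counts. The genes that mark low oxygen (CA9, NDRG1, ANGPTL4, VEGFA and EGLN3) were higher at 1% O2 than at 20% O2 on both days. CA9 was at 68.7 TMM CPM after 10 days at 1% O2 against 8.48 at 20% O2, and at 51.9 after 1 day at 1% O2 against 5.10 at 20% O2. In reoxygenated cells CA9 was at 3.65 TMM CPM. Of the 5 genes, 2 were at least 0.5 higher in log2 there than after 10 days at 20% O2. These were VEGFA, at 164 against 78.2 TMM CPM, and ANGPTL4, at 10.2 against 5.55. The line's markers VIM and CD44 stood between 557 and 2199 TMM CPM in all libraries, and ESR1, PGR and CDH1 at no more than 1.06. The blood, endothelial and fibroblast markers PTPRC, CD14, PECAM1, CDH5, PDGFRA and DCN were between 0 and 3.83 TMM CPM. ERBB2 stood between 42.5 and 52.9 and EPCAM between 15.1 and 29 TMM CPM, so both were detected although the line is known for low levels of them.

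The proteasome is the large protease that destroys proteins tagged with ubiquitin. Its barrel-shaped core particle stacks outer rings of alpha subunits (PSMA genes) on inner rings of beta subunits (PSMB genes), and PSMB5, PSMB6 and PSMB7 carry the cutting sites. A regulatory particle sits on the barrel: a base with a ring of ATPases (PSMC genes) unfolds the substrate, and a lid (most PSMD genes) removes ubiquitin through PSMD14. Dedicated chaperones, PSMG1 to PSMG4 for the core and PSMD5, PSMD9 and PSMD10 for the base, guide assembly and leave the finished complex. In cancer cells the protease is a drug target, and when it is inhibited the transcription factor NFE2L1 drives its genes together.

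After 10 days at 1% O2 the whole set was low. Together the 39 genes held 0.655% of the counts in reoxygenated cells (0.649 to 0.661), 0.420% after 10 days at 1% O2 (0.416 to 0.424), 0.735% after 10 days at 20% O2 (0.730 to 0.740), 0.681% after 1 day at 1% O2 (0.677 to 0.686) and 0.783% after 1 day at 20% O2 (0.778 to 0.788). The library of 10 days at 1% O2 lay below the other 4, whose shares did not overlap within counting error either. For 38 of the 39 genes that library also held the lowest of the 5 TMM CPM values, and the exception was PSMG4, which was lowest in reoxygenated cells. How many of all genes were lowest in that library was not counted. In bulk libraries, fewer cells that carry a transcript and less of it per cell cannot be told apart.

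**Figure D1:**
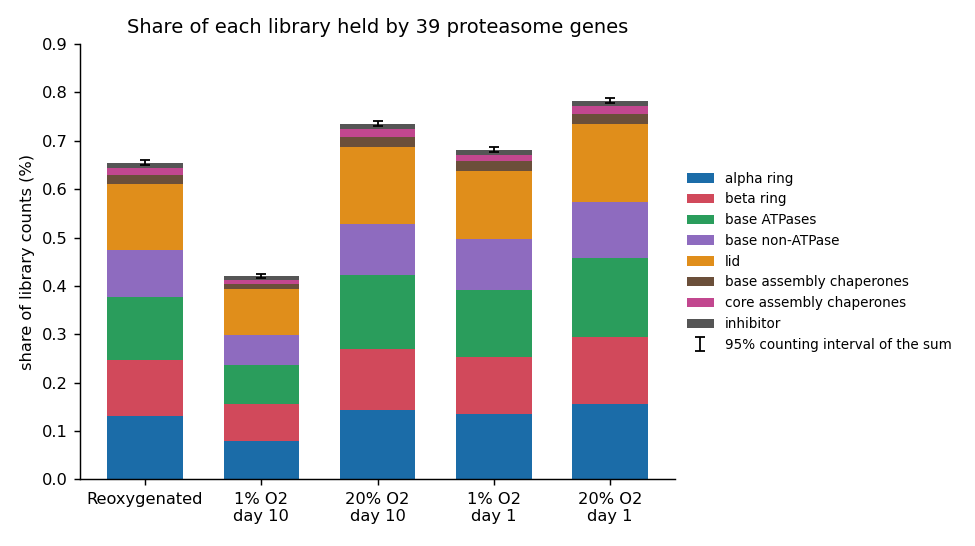
Stacked bars give the percentage of each library's counts held by the 39 proteasome genes, split by role, with 1 bar for each of the 5 libraries and a 95% counting interval on the sum. The bar for 10 days at 1% O2 reaches 0.420%, against 0.655% to 0.783% in the other 4.

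Levels between genes were compared per kilobase of the principal GENCODE transcript, which need not be the isoform these cells use. After 1 day at 20% O2 the 31 structural subunits spanned 54.4 to 357 TMM CPM per kb and the 7 chaperones 10.6 to 35.6, so the ranges did not overlap. After 10 days at 1% O2 the ranges were 22.6 to 180 TMM CPM per kb for subunits and 8.01 to 20.5 for chaperones, again without overlap. PSMF1, which encodes a proteasome inhibitor (PI31), was at 16 TMM CPM per kb after 10 days at 1% O2 and 27.3 after 10 days at 20% O2.

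**Figure D2:**
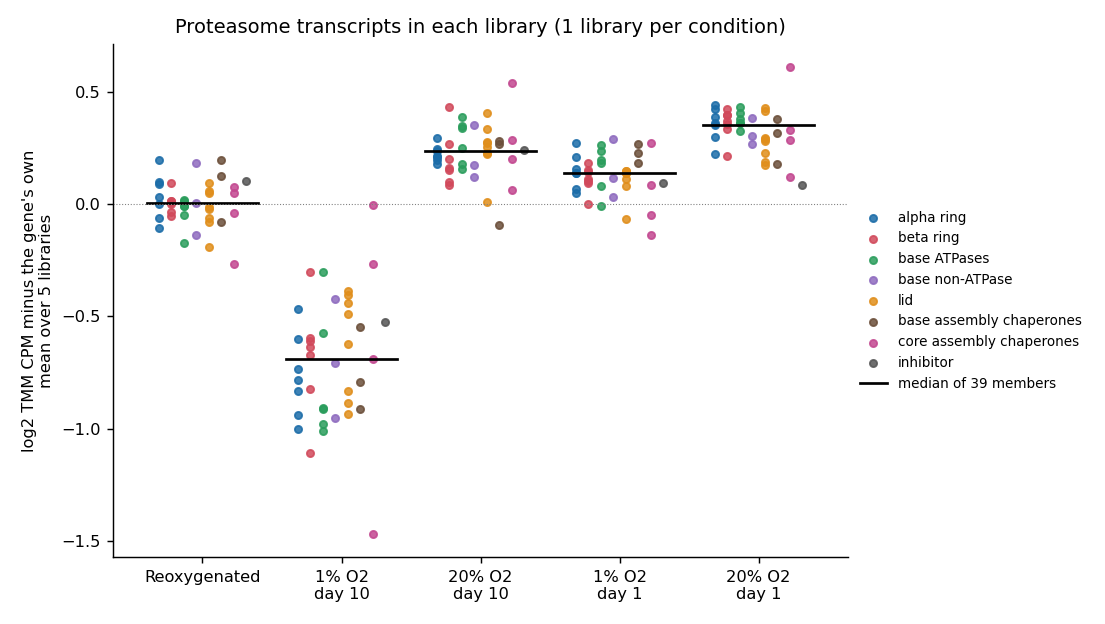
Points give each gene's log2 TMM CPM minus its own mean over the 5 libraries, coloured by role, and black bars give the median of the 39 genes in each of the 5 libraries. The points for 10 days at 1% O2 lie below those of the other libraries for nearly every gene, and PSMG1 is the lowest of them.

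The question of long hypoxia is the comparison of 10 days at 1% O2 with 10 days at 20% O2. All 39 genes were lower at 1% O2, against 54.1% of all genes, with a median log2 difference of -0.89, or 0.540 of the level at 20% O2. The intervals of 38 lay below 0, against 41.9% of the genes that passed the same level filter. A log2 difference of at most -0.5 was seen in 33 of 39, against 25.7% of these 11641 genes. At least 0.5 was reached by 0 of 39, against 21.6% of all genes, and a size of at least 1 (2-fold) by 18 of 39, all lower, against 17.3% of all genes. The median over all genes was -0.07, so the set lay 0.82 below it, and 10.3% of genes lay below the median of the set. Well expressed genes were lower in general: of 2550 genes that averaged at least 100 TMM CPM, 36.1% were at or below -0.5, with a median of -0.30. Among the 32 proteasome genes at that level the count was 29 and the median -0.99. Scaling by library totals instead of TMM factors moved the median of all genes by 0.13 and that of the set to -0.76, and all 39 were still below 0.

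The cell division genes MKI67, PLK1 and CCNB1 were also low after 10 days at 1% O2. MKI67 was at 406 TMM CPM after 10 days at 1% O2 against 820 at 20% O2, PLK1 at 32.9 against 142, and CCNB1 at 92.8 against 315. After reoxygenation MKI67 stood at 782, PLK1 at 122 and CCNB1 at 307 TMM CPM. At day 1 they were split. MKI67 was higher at 1% O2, with 980 TMM CPM against 744 at 20% O2. PLK1 (134 against 156) and CCNB1 (330 against 400) were lower. The part of cell division in the proteasome values was not tested.

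The alpha ring forms the gate of the barrel, and the median log2 difference of its genes at day 10 was -1.03. All 7 genes were at or below -0.5. PSMA3 was lowest, with 156 TMM CPM in reoxygenated cells, 68.1 after 10 days at 1% O2, 158 after 10 days at 20% O2, 152 after 1 day at 1% O2 and 185 after 1 day at 20% O2, and a difference of -1.21 (-1.34 to -1.09). Its level after 10 days at 1% O2 was thus under every other library, while the reoxygenated and the 20% O2 day 10 values were nearly equal. With the counts of the antisense row PSMA3-AS1 added, the difference was -0.69. PSMA2 differed by -1.15, and PSMA1, PSMA4 and PSMA5 each by -1.03. The smallest differences of the ring were those of PSMA7 at -0.78 (-0.86 to -0.70) and PSMA6 at -0.70 (-0.81 to -0.60).

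The beta ring was more spread, from -1.54 to -0.38, with a median of -0.79 and 6 of 7 genes at or below -0.5. PSMB2, a non-catalytic subunit, had 169 TMM CPM in reoxygenated cells, 73.6 after 10 days at 1% O2, 214 after 10 days at 20% O2, 180 after 1 day at 1% O2 and 209 after 1 day at 20% O2. Its difference of -1.54 (-1.66 to -1.42), a change of -65.5%, was the lowest of all structural subunits. At the other end stood PSMB5, which encodes the chymotrypsin-like site that proteasome inhibitor drugs bind, with 100 TMM CPM in reoxygenated cells, 81.3 after 10 days at 1% O2, 106 after 10 days at 20% O2, 100 after 1 day at 1% O2 and 116 after 1 day at 20% O2. That is a difference of -0.38 (-0.51 to -0.26), a change of -23.4%.

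The catalytic genes therefore did not move as a block. PSMB7, the trypsin-like subunit, had 176 TMM CPM in reoxygenated cells, 99.0 after 10 days at 1% O2, 211 after 10 days at 20% O2, 193 after 1 day at 1% O2 and 230 after 1 day at 20% O2, a difference at day 10 of -1.09 (-1.20 to -0.99). PSMB6, the caspase-like subunit, had 97.1, 61.8, 107, 104 and 123 TMM CPM in the same order of libraries, a difference of -0.79 (-0.93 to -0.65). The counting intervals of PSMB5, PSMB6 and PSMB7 did not overlap each other. PSMB3, PSMB1 and PSMB4, which have no cutting site, differed by -0.87, -0.77 and -0.69.

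In the base, the 6 ATPase genes had a median log2 difference of -1.21, with 5 at or below -0.5. PSMC3 had 247 TMM CPM in reoxygenated cells, 123 after 10 days at 1% O2, 326 after 10 days at 20% O2, 285 after 1 day at 1% O2 and 336 after 1 day at 20% O2, a difference of -1.40 (-1.49 to -1.31). PSMC6 differed by -1.32 (-1.45 to -1.19), PSMC2 by -1.25, PSMC1 by -1.16 and PSMC5 by -0.75. PSMC4 differed least of the ring, by -0.46 (-0.55 to -0.37). Its levels were 168 TMM CPM in reoxygenated cells, 154 after 10 days at 1% O2, 211 after 10 days at 20% O2, 188 after 1 day at 1% O2 and 237 after 1 day at 20% O2, so the lowest library was close to the reoxygenated one.

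The base scaffolds PSMD1 and PSMD2 differed by -1.30 (-1.41 to -1.21) and -0.88 (-0.94 to -0.82). PSMD4, which encodes a receptor that binds ubiquitin chains, had 165 TMM CPM in reoxygenated cells, 122 after 10 days at 1% O2, 179 after 10 days at 20% O2, 168 after 1 day at 1% O2 and 197 after 1 day at 20% O2. Its difference of -0.54 (-0.65 to -0.45) was the smallest of these 3 base genes. Of the transcript words of PSMD4, 20.0% also occur in the row PIPSL, which held at most 9 counts in a library.

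Of the 8 lid genes, 7 were at or below -0.5, with a median of -0.84. PSMD12 differed by -1.29, PSMD6 by -1.21, PSMD11 by -1.11 and PSMD3 by -0.95. PSMD14, the deubiquitinase that strips ubiquitin from substrates, had 152 TMM CPM in reoxygenated cells, 113 after 10 days at 1% O2, 186 after 10 days at 20% O2, 176 after 1 day at 1% O2 and 179 after 1 day at 20% O2, a difference of -0.72 (-0.82 to -0.62). PSMD7, its partner in the lid without catalytic activity, differed least of the lid genes, by -0.40 (-0.50 to -0.29). PSMD8 and PSMD13 each differed by -0.66.

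**Figure D3:**
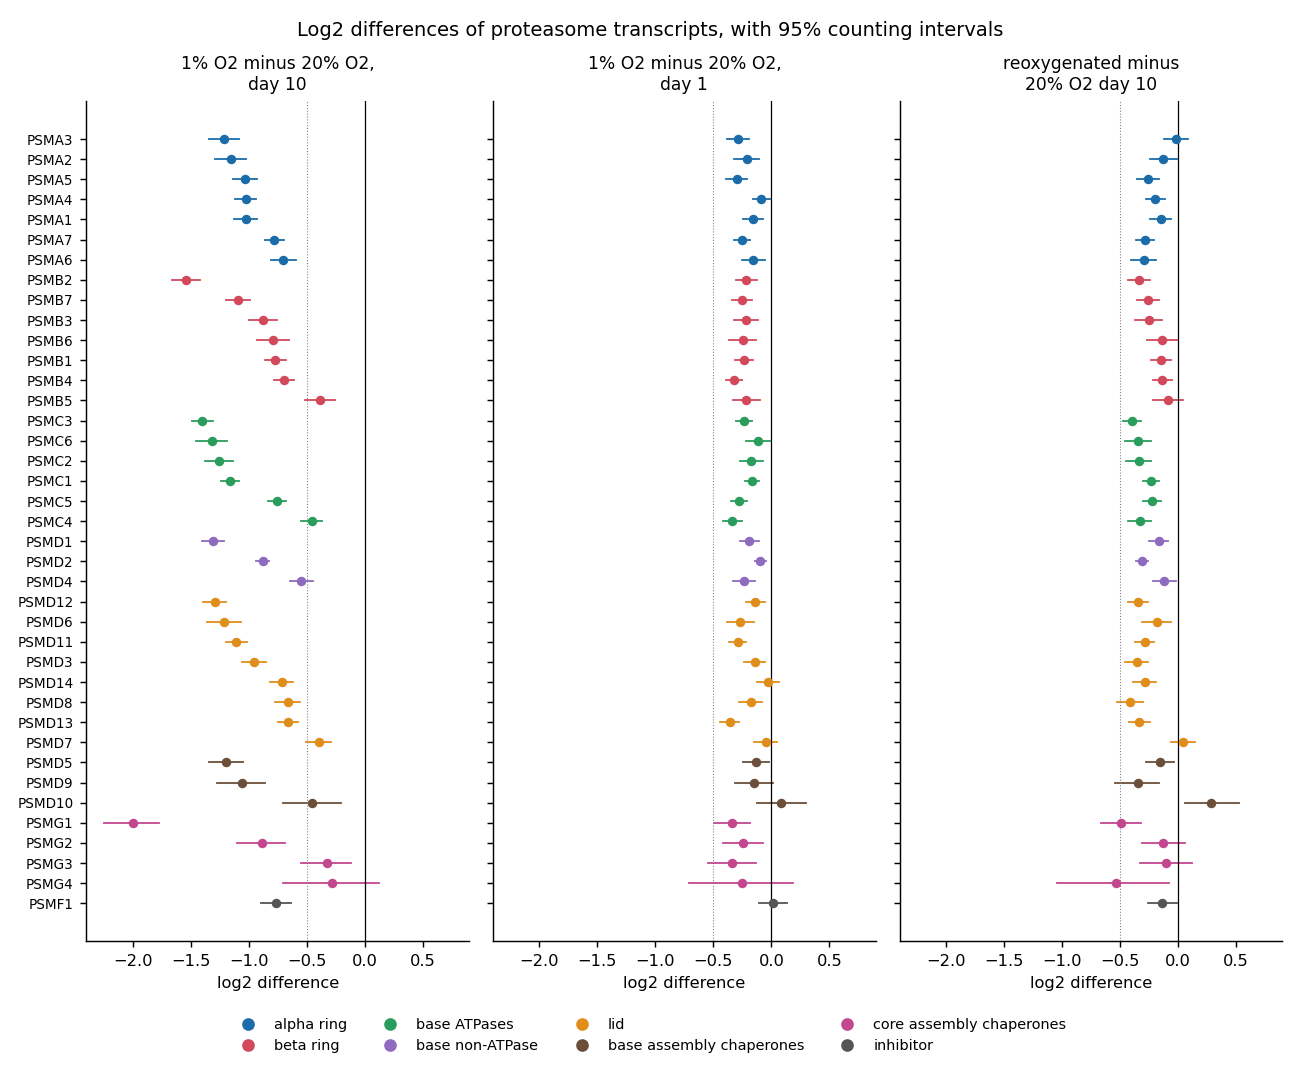
Each row is a proteasome gene, coloured by role, and each panel plots its log2 difference (x axis) with the 95% counting interval for 1% O2 minus 20% O2 at day 10, the same at day 1, and reoxygenated cells minus 20% O2 at day 10. The day 10 values run from -2.00 (PSMG1) to -0.28 (PSMG4), and the other panels stay between -0.54 and 0.29.

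The assembly factors held both ends of the set. PSMG1, which with PSMG2 forms the chaperone that gathers the alpha ring, had 49.4 TMM CPM in reoxygenated cells, 17.2 after 10 days at 1% O2, 69.5 after 10 days at 20% O2, 57.6 after 1 day at 1% O2 and 72.9 after 1 day at 20% O2. The difference was -2.00 (-2.25 to -1.78), or 0.250 of the level at 20% O2, the lowest of the 39 genes. PSMG2 had 47.9, 28.2, 52.3, 48.2 and 57.2 TMM CPM in the same libraries and differed by -0.89 (-1.10 to -0.69), so the partners' intervals did not overlap.

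PSMG3 and PSMG4 form the other chaperone of the alpha ring. PSMG3 had 33.4 TMM CPM in reoxygenated cells, 28.5 after 10 days at 1% O2, 35.9 after 10 days at 20% O2, 33.2 after 1 day at 1% O2 and 41.9 after 1 day at 20% O2, and differed by -0.33 (-0.55 to -0.11), or by -0.15 with the counts of PSMG3-AS1 added. PSMG4 had 6.79, 8.14, 9.95, 7.41 and 8.86 TMM CPM in that order of libraries, and its difference of -0.28 (-0.71 to 0.12) was not detectable at this depth.

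Of the base chaperones, PSMD5 differed by -1.19 (-1.34 to -1.05), or by -0.93 with the counts of the antisense row PSMD5-AS1 added. Its level was 52.2 TMM CPM after 10 days at 1% O2 against 120 at 20% O2. For PSMD9 the value was -1.06 (-1.27 to -0.86), with 26.5 against 55.5 TMM CPM. PSMD10, also known as the oncoprotein gankyrin, had 34.7 TMM CPM in reoxygenated cells, 20.7 after 10 days at 1% O2, 28.4 after 10 days at 20% O2, 36.4 after 1 day at 1% O2 and 34.3 after 1 day at 20% O2, a difference of -0.45 (-0.71 to -0.21). PSMF1 had 106, 68.8, 117, 106 and 105 TMM CPM in the same libraries and differed by -0.76 (-0.90 to -0.64).

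Because the genes were low together, their promoters were searched for TGACNNNGC, the core of the antioxidant response element that NFE2L1 and NFE2L2 bind, and for the CCAAT box bound by NF-Y, both on both strands. Promoter sequences (RefSeq, build GRCh38.p14, 250 bases before to 50 after the start) were matched for 33 of the 39 genes. TGACNNNGC was found in 9 of 33 (27.3%), against 13.6% of 27305 promoters of the same length, and CCAAT in 16 of 33 (48.5%), against 35.7%. Day 10 differences overlapped widely between genes with TGACNNNGC (median -1.06, -2.00 to -0.46) and without it (median -0.95, -1.54 to -0.28). For CCAAT the medians were -0.99 with and -1.03 without. In PSMC4 and PSMD1 the match lies after the start. A match is a run of letters and not a shown binding site.

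The stretches around the matches upstream of the start site are shown so that the shared core and its differing neighbours can be compared. They run 5′ to 3′ on the gene's strand with the match in capitals, and on the first PSMD9 line the match lies on the opposite strand.
PSMB3, chr17:38752612-38752670, plus strand: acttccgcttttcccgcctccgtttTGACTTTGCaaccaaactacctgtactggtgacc
PSMD3, chr17:39980745-39980803, plus strand: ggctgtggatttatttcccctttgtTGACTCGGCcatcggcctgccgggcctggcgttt
PSMD5, chr9:120843023-120843081, minus strand: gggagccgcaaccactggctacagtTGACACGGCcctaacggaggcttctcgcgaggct
PSMD9, chr12:121888616-121888674, plus strand: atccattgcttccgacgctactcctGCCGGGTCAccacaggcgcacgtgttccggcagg
PSMD9, chr12:121888663-121888721, plus strand: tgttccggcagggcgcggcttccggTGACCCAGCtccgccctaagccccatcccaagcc
PSMD12, chr17:67366709-67366767, minus strand: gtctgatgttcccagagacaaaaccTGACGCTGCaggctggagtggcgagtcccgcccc
PSMG2, chr18:12658674-12658732, plus strand: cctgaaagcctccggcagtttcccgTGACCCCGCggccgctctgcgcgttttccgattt

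PSMG1 (chromosome 21, 39174769 to 39183514), the gene with the lowest value, holds both motifs. The 250 bases before the start of its promoter entry (chr21:39183452-39183701, minus strand) are printed whole. The CCAAT box and then the TGACNNNGC match are in capitals. That start lies inside the gene span given above, so the end of the printed stretch overlaps the span.
PSMG1: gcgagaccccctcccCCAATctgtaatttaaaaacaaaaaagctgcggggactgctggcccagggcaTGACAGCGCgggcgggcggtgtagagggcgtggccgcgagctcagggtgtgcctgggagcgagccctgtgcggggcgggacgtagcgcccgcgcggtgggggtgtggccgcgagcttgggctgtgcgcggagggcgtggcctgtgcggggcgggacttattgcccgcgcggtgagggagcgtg

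After 1 day at 1% O2 the set was also lower than at 20% O2, but by little. The median log2 difference was -0.21, or 0.862 of the level at 20% O2, while the median over all genes was -0.00. Of the 39 genes, 37 were below 0, against 50.4% of all genes. The intervals of 33 lay wholly below 0, against 18.1% of all genes, and none lay above it. A narrow interval needs a high count, and all genes include many with lower counts than these. By size, 0 of 39 were at or below -0.5, against 2.21% of all genes, 0 at or above 0.5, against 4.75%, and 0 at 1 or more in size, against 1.1%. The lowest were PSMD13 at -0.36 (-0.45 to -0.28), PSMG1 at -0.34 (-0.49 to -0.18), PSMC4 at -0.34 (-0.42 to -0.25) and PSMG3 at -0.34 (-0.54 to -0.13). Among genes whose interval excluded 0, the mildest were PSMA4 at -0.09, PSMD2 at -0.09, PSMC6 at -0.12 and PSMD5 at -0.13. The catalytic genes were close together, with PSMB5 at -0.21, PSMB6 at -0.25 and PSMB7 at -0.25. PSMD4 stood at -0.24, PSMG2 at -0.25 and PSMG4 at -0.25 (-0.71 to 0.19). The intervals of PSMD14 (-0.03), PSMD7 (-0.05), PSMD9 (-0.15), PSMD10 (0.09) and PSMF1 (0.01) also included 0.

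The direct contrast of long with short exposure, the day 10 difference minus the day 1 difference, had a median of -0.77 over the 39 genes and -0.09 over all genes. In 29 of 39 it was at or below -0.5, against 23.9% of all genes. None of the 39 reached 0.5, against 19.4%, and 8 were at least 1 in size, all lower, against 13.9%. Of the 2550 genes that averaged at least 100 TMM CPM, 34.2% were at or below -0.5, with a median of -0.31. Among the 32 proteasome genes at that level the count was 24 and the median -0.80. PSMG1 (-1.66), PSMB2 (-1.32), PSMC6 (-1.20) and PSMC3 (-1.16) were lowest. PSMG3 (0.01), PSMG4 (-0.03), PSMC4 (-0.12) and PSMB5 (-0.17) were highest. The day 1 difference is subtracted here, so the low day 1 values of PSMC4 and PSMG3 raise theirs. Of the others named by role, PSMD4 was at -0.31, PSMB6 and PSMD10 at -0.54, PSMG2 at -0.64, PSMD14 at -0.69, PSMF1 at -0.77, PSMB7 at -0.83, PSMD9 at -0.91 and PSMD5 at -1.06. With the counts of PSMD5-AS1 and PSMG3-AS1 added to their partners, PSMD5 was at -0.81 and PSMG3 at 0.12.

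Taking both days together, the 1% O2 and 20% O2 libraries entered edgeR's quasi-likelihood test, in which the day was a term. It called 0 of the 39 genes at a Benjamini-Hochberg adjusted p of 0.05 over all genes, while 0.999% of 13011 genes were called. All 39 had a change below 0, with a median log2 change of -0.53, and 17 had an unadjusted p under 0.05, against 12.2% of all genes. PSMG1 came closest, with a log2 change of -1.14 (SE 0.31) and an adjusted p of 0.0799 in edgeR's test, lower at 1% O2 on both days. PSMB2 followed at -0.86 (SE 0.30, adjusted p = 0.215 in edgeR's test) and PSMC3 at -0.80 (SE 0.30, adjusted p = 0.258). DESeq2 also called 0 of 39, against 0.377% of all genes. Of the 39, limma-voom called PSMG1 alone, at an adjusted p of 0.0427, against 1.72% of all genes. The test has 1 residual degree of freedom and treats the days as repeats although the differences at day 10 were several times those at day 1. The residual degree of freedom holds the change of the oxygen difference between the days. edgeR's test also shares spread across genes, with 29.8 prior degrees of freedom. Its p-values thus rest mostly on spread pooled over genes and not on repeats of a condition. No label states whether libraries came from separate cultures.

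Reoxygenated cells were set against both 10-day libraries. Against 10 days at 1% O2, 38 of 39 genes were higher, against 6490 of all 11641 genes. The median log2 difference was 0.71, or 1.63-fold, while the median over all genes was 0.09. At least 0.5 was reached by 28 of 39, against 23% of all genes, and at least 1 in size by 8, all higher, against 12.6%. At or below -0.5 there were 0 of 39, against 18.1%. Of the 2550 genes that averaged at least 100 TMM CPM, 26.1% reached 0.5, with a median of 0.21. Among the 32 proteasome genes at that level the count was 23 and the median 0.70. PSMG1 at 1.51 (1.26 to 1.78), PSMB2 at 1.2 (1.08 to 1.33), PSMA3 at 1.2 (1.06 to 1.33, or 0.75 with the counts of PSMA3-AS1 added) and PSMD1 at 1.14 (1.03 to 1.25) were highest. PSMC4 at 0.13 (0.02 to 0.23), PSMD8 at 0.25 (0.13 to 0.37), PSMB5 at 0.30 (0.16 to 0.44) and PSMD13 at 0.32 (0.22 to 0.43) were lowest among genes whose interval excluded 0. The sole negative value was that of PSMG4, -0.26 (-0.78 to 0.25). This comparison and that of 1% O2 with 20% O2 at day 10 share the 1% O2 library, so a low value in it enters both with opposite sign.

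Against 10 days at 20% O2, reoxygenated cells were slightly lower. They had also been in culture for 10 days longer, so that time and the earlier low oxygen cannot be told apart. The median was -0.25, or 0.838 of the level at 20% O2. Of the 39 genes, 37 were below 0, against 51.8% of all genes, and the intervals of 33 lay wholly below it, against 25.5%. The median over all genes was -0.01. Intervals are narrower at high counts, and all genes include many with lower counts than these. Genes that averaged at least 100 TMM CPM had a median of -0.12, and the 32 proteasome genes at that level had one of -0.26. PSMG4 alone of the 39 was at or below -0.5, against 3.85% of all genes. None reached 0.5, against 8.95%, and none was 1 or more in size, against 1.85%. PSMG4 at -0.54 (-1.04 to -0.08), PSMG1 at -0.49 (-0.67 to -0.32), PSMD8 at -0.41 (-0.52 to -0.30) and PSMC3 at -0.40 (-0.48 to -0.32) were lowest. PSMD10, at 0.29 (0.06 to 0.52), was the only gene whose interval lay above 0. Next in order among genes with an interval that excluded 0 came PSMD4 at -0.12, PSMA2 at -0.13 and PSMB4 at -0.13. In PSMA3 (-0.01, -0.12 to 0.09), PSMB5 (-0.08, -0.21 to 0.04) and PSMD7 (0.04, -0.06 to 0.15) no difference was detectable at this depth. PSMB6 (-0.14), PSMB7 (-0.26), PSMD14 (-0.29), PSMD5 (-0.16), PSMD9 (-0.35) and PSMF1 (-0.14) were lower with intervals below 0, while those of PSMG2 (-0.13) and PSMG3 (-0.10) included 0. For 35 of the 39 genes the reoxygenated value lay nearer to the 20% O2 library than to the 1% O2 library of day 10. The share over all genes was not counted, so this cannot be read as particular to the set.

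**Figure D4:**
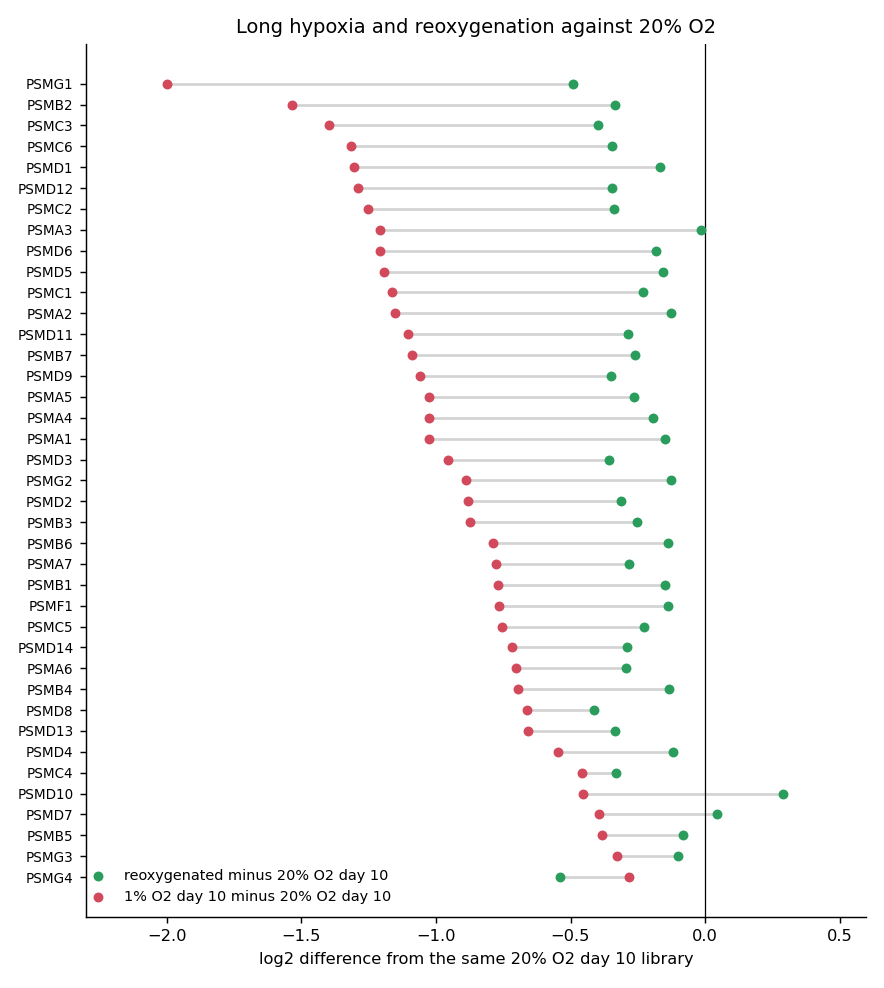
For each gene, ordered by its value after 10 days at 1% O2, green points give the log2 difference of reoxygenated cells and red points that of cells after 10 days at 1% O2, both from the same 20% O2 day 10 library (x axis). Most green points lie between -0.41 and 0, far to the right of the red ones, and PSMG4 is the gene whose green point lies to the left.

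Time in culture alone was read from the 20% O2 libraries of day 10 and day 1. The median of the 39 genes was -0.13 and that of all genes -0.00, with 31 of 39 below 0, against 50.5% of all genes. None of the 39 was at or below -0.5, against 4.43% of all genes, at or above 0.5, against 6.46%, or 1 and more in size, against 1.98%. The lowest were PSMB4 at -0.33 (-0.39 to -0.26), PSMD10 at -0.27, PSMA3 at -0.23 and PSMG3 at -0.22. Only PSMF1 at 0.16 (0.04 to 0.27), PSMD12 at 0.12 (0.05 to 0.20) and PSMD3 at 0.11 (0.02 to 0.19) had intervals above 0, against 21.8% of all genes. The intervals of 20 of the 39 lay below 0, and the share of all genes in that direction was not counted. The catalytic genes PSMB5 (-0.13), PSMB6 (-0.21) and PSMB7 (-0.13) and the ubiquitin receptor gene PSMD4 (-0.14) were a little lower, and PSMD14 (0.05), PSMD5 (-0.03), PSMD9 (-0.11), PSMG1 (-0.07), PSMG2 (-0.13) and PSMG4 (0.16) had intervals that included 0. The day 1 comparison subtracts the same 20% O2 library of day 1, so a high value in it enters both.

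Genes of the pathway outside the symbol rule were described from fixed lists, at day 10 unless stated. All 3 immunoproteasome genes were below 0. PSMB8 was at 24.7 TMM CPM after 10 days at 1% O2 against 47.1 at 20% O2, a log2 difference of -0.93 (-1.15 to -0.72), while PSMB10 (-0.80) and PSMB9 (-0.34, -0.80 to 0.10) had low levels of 5.17 to 9.13 TMM CPM in these libraries. Among the activators, PSME3, which encodes the nuclear activator, was at 220 against 554 TMM CPM, a difference of -1.34 (-1.41 to -1.27). The interferon-responsive PSME1 and PSME2 were at -0.05 (-0.22 to 0.11) and -0.70, and PSME4 at -0.28.

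Of 8 other proteasome proteins, 4 were at or below -0.5, against 25.7% of all genes, and 7 below 0, against 54.1%. These were the deubiquitinase genes USP14 (-1.07) and UCHL5 (-0.94), the core maturation factor POMP (-0.86, with 135 against 245 TMM CPM) and the ubiquitin receptor ADRM1 (-0.64). The lid component SHFM1 was at -0.48, the ubiquitin ligase UBE3C at -0.48 and KIAA0368 at -0.30. The base chaperone PAAF1 alone was not lower, at 0.09 (-0.20 to 0.37).

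The genes that control proteasome transcription were split. NFE2L1 stood at 430 TMM CPM in reoxygenated cells, 534 after 10 days at 1% O2, 482 after 10 days at 20% O2, 385 after 1 day at 1% O2 and 345 after 1 day at 20% O2, a difference at day 10 of 0.15 (0.09 to 0.20). Its transcript was highest after 10 days at 1% O2. At 20% O2 alone it was 0.48 (0.42 to 0.54) higher in log2 at day 10 than at day 1. A link to the proteasome genes was not tested. DDI2, the protease that releases the active NFE2L1 protein, was at 0.35 (0.02 to 0.70). The membrane ligase SYVN1 and its partner SEL1L were at 0.30 and 0.34, NGLY1, which removes sugars from NFE2L1, at -0.26, and NFE2L2 at -0.22. VCP, the ATPase that pulls proteins out of membranes and complexes, was at 279 against 590 TMM CPM, a difference of -1.08 (-1.14 to -1.02). The NF-Y subunit genes NFYA, NFYB and NFYC were at -0.35, -0.60 and -0.55. No protein or cleavage of NFE2L1 was measured.

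Of the genes for ubiquitin supply, UBB, a polyubiquitin gene, was at 696 TMM CPM after 10 days at 1% O2 against 840 at 20% O2, a log2 difference of -0.27 (-0.32 to -0.23). RPS27A, which encodes ubiquitin fused to a ribosomal protein, was at -0.54. The activating enzyme genes UBA1 and UBA6 were at -0.00 and -0.62. In edgeR's test of both days together, none of the pathway genes named here had an adjusted p under 0.05. Of all 13011 genes tested, 0.999% were called, so few calls would be found in lists this short.

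**Figure D5:**
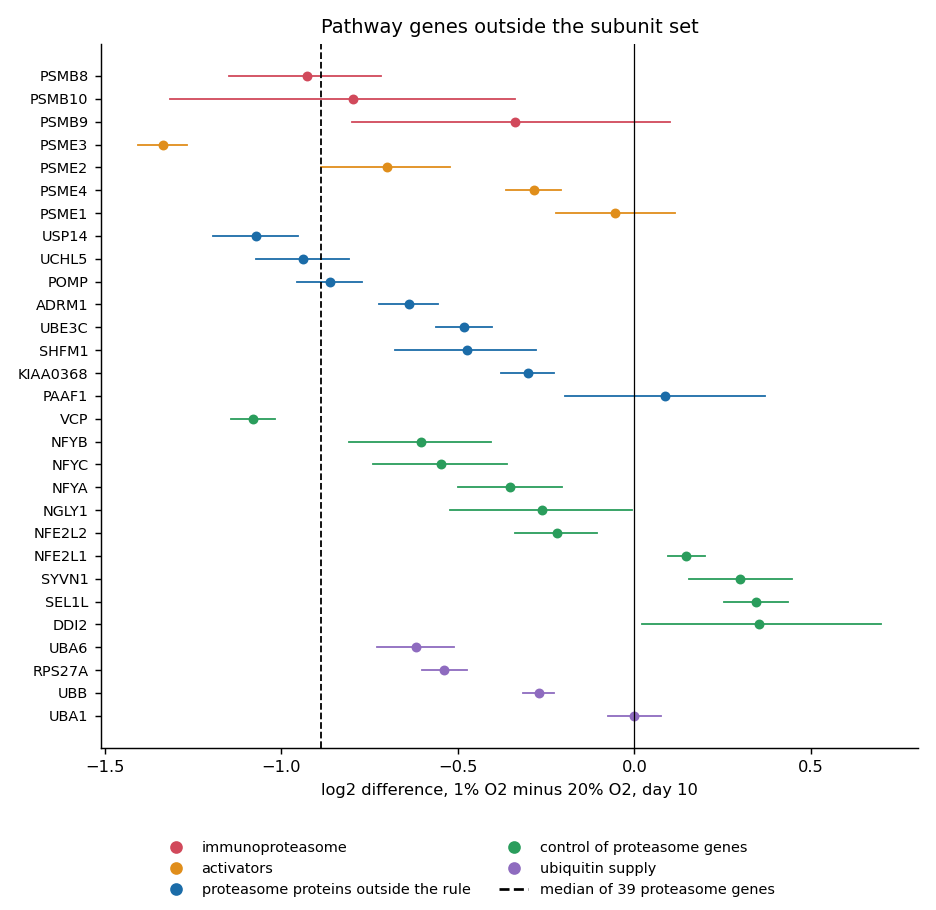
Points give the log2 difference between 1% O2 and 20% O2 at day 10 (x axis) for pathway genes outside the subunit set, with 95% counting intervals and coloured by list, and the dashed line marks the median of the 39 proteasome genes, -0.89. PSME3, VCP, USP14, UCHL5 and PSMB8 lie left of the line, and NFE2L1, SYVN1, SEL1L and DDI2 lie right of 0.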

How the data were processed

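Libraries were made from mRNA, per the labels' protocols. Bowtie2 2.1.0, RSEM 1.2.15, edgeR and hg38 are named in the submitters' processing notes. For the annotation and the strand setting, sources used here give nothing. The authors deposited expected counts per gene symbol, which are estimates and not always whole; the role of each tool is not stated. They also deposited a signal table on the scale of CPM with TMM factors, which holds the same reads and was used only as an alternative.

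Counts were rounded, TMM factors (0.965 to 1.07) came from 13940 genes with at least 1 CPM, and log2 values used edgeR 4.0.16 in R 4.3.3 with a prior count of 2. One count was worth 0.0816 to 0.126 TMM CPM, and 0 counts allow up to 3. Reads carry no molecular identifiers, so intervals and floors cover counting error only. The test of both days used genes that reached 1 CPM in 2 or more of 4 libraries; DESeq2 1.42.0 and limma 3.58.1 were alternatives. The script was tested on simulated counts.

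Members and lists were chosen with earlier results of these data known. Named in each comparison were the 4 lowest and 4 highest members with an interval excluding 0 and those of fixed roles; others were added after their values were seen. Coordinates and promoters are from RefSeq (GRCh38.p14), all 39 members matching for coordinates; transcripts and the 50-base words compared between genes are from GENCODE. Some genes of the ubiquitin list are not reported here.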

Additional observations from a re-analysis of the deposited data

Results flagged for a closer look

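PSMD10 and PSMF1 were flagged because their values had opposite signs on the 2 days: PSMD10 differed by -0.45 at day 10 and 0.09 at day 1, a difference between days of -0.54, and PSMF1 by -0.76 and 0.01, a difference of -0.77. The day 1 intervals of both included 0, and with 1 library per condition the difference between days was not tested.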

How the results depend on the processing

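With 1 library per condition, depth and the scaling of single libraries set the precision. Medians of the set kept their sign under every alternative run. The medians relative to all genes hardly moved with scaling. A scaling factor shifts every gene of a library almost alike, so that result was fixed in advance and is no check. With library totals the medians were -0.76 at day 10, -0.65 for day 10 minus day 1, 0.66 for reoxygenated minus 1% O2, -0.18 for reoxygenated minus 20% O2 (0 genes at or below -0.5) and -0.11 for time at 20% O2. With median-of-ratios factors they were -0.23 at day 1, -0.75 for day 10 minus day 1 and 0.69 for reoxygenated minus 1% O2. With the authors' table they were -0.24, -0.91, 0.66 and -0.32 for day 1, day 10 and reoxygenated minus 1% and minus 20% O2 (2 genes at or below -0.5 in the last). Chosen after seeing the data, leaving out 6 members that share exons or words with other rows gave -0.95 at day 10 and 0.74 for reoxygenated minus 1% O2, and adding antisense rows gave -0.73 for day 10 minus day 1. In the test of both days, limma-voom called 1 member, against 1.72% of all genes, and edgeR's fit without a filter 1, against 1.57%. In each case it was PSMG1, at an adjusted p of 0.0427 in limma-voom and 0.0119 in edgeR's fit. The adjusted p of PSMG1 was 0.418 with DESeq2. In edgeR's test it was 0.287 with median-of-ratios factors and 0.772 without the day term. Fits of 3 libraries without the day term called 0 to 33 members. The 33 came from leaving out 1% O2 at day 1, when 32.8% of genes were called, and the others gave 0; the cause was not tested. The day term pairs libraries of the same day, and without it 0 members and 0 of all 13011 genes were called. The labels carry no replicate numbers for a further pairing.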

Other observations

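Of the antisense rows named for members, 3 were higher after 10 days at 1% O2 than at 20% O2, and PSMD6-AS2 had 12 against 15 counts. PSMD5-AS1 had 153 counts at 1% O2 against 95 at 20% O2, a log2 difference of 0.90 (0.54 to 1.30), where PSMD5 was at -1.19. PSMA3-AS1 had 542 against 439 counts, 0.53 (0.35 to 0.72), where PSMA3 was at -1.21. PSMG3-AS1 had 73 against 44 counts, 0.93 (0.40 to 1.54), where PSMG3 was at -0.33. The strand setting is not given. In GENCODE, the exons of coding PSMG3 transcripts share 3.06% of their bases with PSMG3-AS1, and no shared exonic base was found for PSMA3 and PSMA3-AS1. The overlap of PSMD5-AS1 was not tested.

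PSMC1 shares 82.1% of its annotated exonic bases with NRDE2 on the opposite strand. NRDE2 had 253 counts at 1% O2 and 346 at 20% O2 at day 10, against 1842 and 4849 for PSMC1. PSMD9 shares 15.7% with WDR66 on the same strand, and WDR66 was higher, with 338 against 150 counts and a log2 difference of 1.39.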
